A study of Mus musculus with 14 samples.

Results

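The genes described here are the 8 that encode subunits of Polycomb repressive complex 2 (PRC2) in the mouse: Ezh1, Ezh2, Eed, Suz12, Jarid2, Mtf2, Phf19 and Aebp2. They were taken by name from 21887 protein-coding genes, and each was described by the peaks of histone H3 lysine 4 (H3K4) methylation and of Mll1 that lay inside the gene or within 10 kb of either of its ends. Such peaks are regions where sequenced tags of precipitated chromatin pile up over an input library. The cells were blastocyst-derived embryonic stem cells of strain C57BL/6J with the genotype Mll1 fl/fl; Cre-ER TM, grown without feeders on Matrigel with LIF, 5% serum and 15% KSR.

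The groups were cells given MM-401 at 100 µM for 9 days and 3 passages, cells given 4-hydroxytamoxifen (4-OHT) at 5 µM for the same time, and untreated cells. MM-401 is an inhibitor of Mll1, a methyltransferase of H3K4, and 4-OHT activates the Cre recombinase that removes the floxed Mll1 sequence. All groups, the untreated one included, carry the floxed alleles and the Cre fusion, and the labels tell neither how many clones were used nor whether the lines of the groups were grown side by side. Excision of Mll1 cannot be checked in these lists. H3K4me1, H3K4me2 and H3K4me3 were each mapped in all 3 groups, and Mll1 in untreated cells only. Each group had 1 library of each kind, so there is no spread between replicates, no test was possible, and differences below compare libraries.

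PRC2 is the enzyme that methylates lysine 27 of histone H3, a mark of silenced genes. Its core holds a catalytic subunit, Ezh2 or its relative Ezh1, with Eed and Suz12, which the enzyme needs for activity. The accessory subunits fall into classes that bind the core in different assemblies: Jarid2 and Aebp2 in the first, and the Polycomb-like proteins Mtf2, Phf19 and Phf1 in the other. In embryonic stem cells PRC2 occupies the CpG-rich starts of many developmental genes. H3K4 methylation marks the other state: H3K4me3 is typical of active starts, while H3K4me1 sits beside starts and at enhancers.

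The 4 promoter sequences shown are those the results turn on: Jarid2 and the upstream start of Mtf2 lay under the widest H3K4me3 peaks of the group, the downstream start of Mtf2 lay nearest to an Mll1 peak, and Ezh1 had the lowest H3K4me3 start level in 4-OHT and untreated cells. Each is the 250 bases before an annotated start, 5′ to 3′, from RefSeq on GRCm38.p6, with each CpG in capitals. They lie at chr13:44730524-44730773 on the plus strand (Jarid2), chr5:108065424-108065673 and chr5:108077915-108078164 on the plus strand (Mtf2), and chr11:101226464-101226713 on the minus strand (Ezh1).
Jarid2 upstream start: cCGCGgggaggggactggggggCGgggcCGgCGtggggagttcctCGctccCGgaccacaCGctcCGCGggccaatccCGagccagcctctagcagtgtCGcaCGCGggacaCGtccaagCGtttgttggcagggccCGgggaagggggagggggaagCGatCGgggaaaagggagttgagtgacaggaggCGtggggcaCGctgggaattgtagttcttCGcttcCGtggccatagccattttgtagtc
Mtf2 upstream start: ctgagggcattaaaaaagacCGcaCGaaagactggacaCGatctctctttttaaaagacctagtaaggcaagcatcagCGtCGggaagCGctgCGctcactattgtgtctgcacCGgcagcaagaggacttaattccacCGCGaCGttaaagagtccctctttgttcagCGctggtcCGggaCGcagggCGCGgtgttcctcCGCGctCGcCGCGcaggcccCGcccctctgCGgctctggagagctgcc
Mtf2 downstream start: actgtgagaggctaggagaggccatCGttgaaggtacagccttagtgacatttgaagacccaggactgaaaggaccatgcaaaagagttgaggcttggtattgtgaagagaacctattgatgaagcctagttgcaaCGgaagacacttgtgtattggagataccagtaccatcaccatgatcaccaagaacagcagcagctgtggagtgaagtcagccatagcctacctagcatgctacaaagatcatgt
Ezh1 start: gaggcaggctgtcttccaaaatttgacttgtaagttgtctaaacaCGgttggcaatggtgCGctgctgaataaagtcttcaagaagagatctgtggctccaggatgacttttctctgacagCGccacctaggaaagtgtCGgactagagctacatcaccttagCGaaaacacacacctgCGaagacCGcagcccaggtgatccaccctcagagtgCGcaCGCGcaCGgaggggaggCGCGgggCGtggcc

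The promoters of Jarid2 and of the upstream start of Mtf2 held 23 CpG each, that of Ezh1 held 14, and that of the downstream start of Mtf2 held 2. The median over 21263 promoters was 10. Among the other members, Suz12 held 37 CpG, Phf19 31, Ezh2 23 and Eed 12, and the 3 starts of Aebp2 held 1, 14 and 3. A CCAAT box (CCAAT, both strands) lay in a promoter of 5 of the 8 genes and in 35.4% of all promoters, and a GC box (GGGCGG, both strands) likewise in 5 genes and in 42.6% of promoters. The gene counts take a match at any start of a gene, with 12 promoters over the 8 genes, while the shares are per promoter. Counts and shares are thus not like for like. Of 2 forms of the E2F site (both strands), TTTCCCGC was found at Suz12 and Phf19 and in 1.19% of all promoters, and TTTGGCGC at no member and in 0.508% of promoters. These matches describe letters only.

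Filtered tags, counted after duplicates were removed, ranged from 12.9 M to 22.2 M in the MM-401 mark libraries, from 26.4 M to 61.8 M in the 4-OHT ones and from 25.3 M to 40.1 M in the untreated ones, with M for 1000000 tags. Per the file headers the MM-401 libraries were processed in another folder and had tags of 57 to 60 bp, against 50 to 51 bp in all other libraries, so MM-401 and this difference in handling cannot be told apart. All 8 stem cell genes checked, among them Pou5f1, Nanog and Sox2, had an H3K4me3 peak at a start in all 3 conditions. Of 7 fibroblast genes 3 had one in each condition, and Col3a1, Dcn, Lum and Postn had none. The Mll1 list was weak, with 0.285% of 30.1 M tags in 4004 peaks and a modelled fragment of 53 bp. Levels below are tags of whole peaks per M filtered tags (tags/M), intervals are exact 95% intervals that cover counting error only, and a ratio past 1.5-fold is called. In bulk chromatin, fewer marked cells and less mark per cell cannot be told apart.

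All 8 members had an H3K4me3 peak within 1 kb of a start in MM-401, 4-OHT and untreated cells. Over all protein-coding genes, 66.7% had one in MM-401 cells, 69.3% in 4-OHT cells and 69.3% in untreated cells. All 8 also had H3K4me1 there in each group, against 67.9%, 73% and 72% of all genes, and for H3K4me2 the shares of all genes were 70%, 72.3% and 72.1%, with Jarid2 in 4-OHT cells the exception among the members. In the MM-401 list 0 of the 8 start levels were past 1.5-fold of untreated, against 7.12% of all genes. In the 4-OHT list 1 was, that of Jarid2, against 3.81% of all genes either way and 2.41% for higher levels. The median log2 ratio of the members' start levels was 0.19 for MM-401 and 0.07 for 4-OHT, against 0.16 and 0.01 over all genes. With 1 library a group, MM-401 levels were above untreated at 6 of 8 members, against 70.7% of all genes. The 4-OHT levels were above untreated at 6 of 8, against 51.7%.

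**Figure D1:**
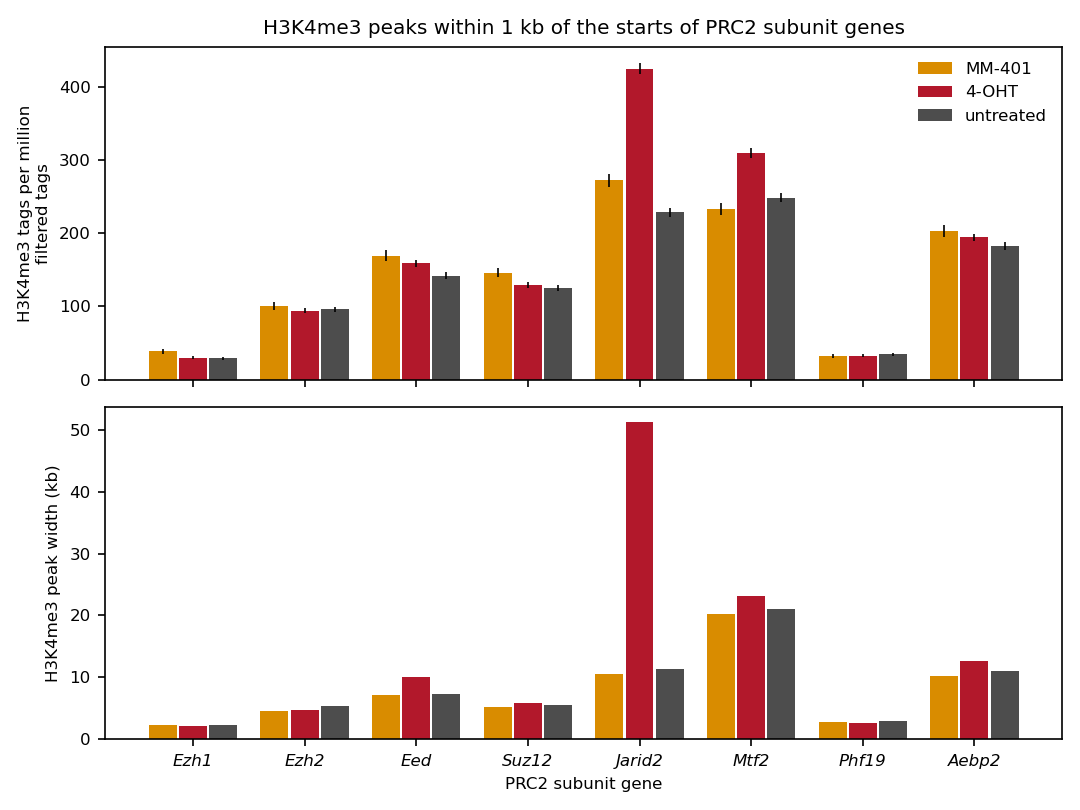
H3K4me3 peaks within 1 kb of the starts of the 8 PRC2 subunit genes, as tags per M filtered tags (upper panel, bars with exact 95% intervals for counting error) and as summed peak width in kb (lower panel), for MM-401, 4-OHT and untreated cells. Jarid2 in 4-OHT cells stands apart in both panels, at 426 tags/M and 51.2 kb.

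At the catalytic subunit genes the H3K4me3 start levels were within 1.5-fold in both comparisons. Ezh2 (chr6:47530274-47595270, minus strand), the main methyltransferase subunit of dividing stem cells, had H3K4me3 at its start at 101 tags/M in MM-401 cells, 94.3 in 4-OHT cells and 96.0 in untreated cells. The peak was 4.51, 4.64 and 5.28 kb wide in that order. Ezh1 (chr11:101191115-101226463, minus strand), its relative, which is best known from resting and differentiated cells, had 38.9 tags/M in MM-401 cells, 29.8 in 4-OHT cells and 29.3 in untreated cells, in a peak of 2.12 to 2.34 kb. The MM-401 over untreated log2 ratio of Ezh1 was 0.41 (0.24 to 0.58), the largest of the 8 for H3K4me3 in that comparison and within 1.5-fold. Beside it H3K4me2 at the same start stood at 19.99 tags/M in MM-401 cells, 15.3 in 4-OHT cells and 15.4 in untreated cells.

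At Ezh2 the start levels past 1.5-fold were those of H3K4me2 and H3K4me1. Its H3K4me2 start peak was 15.4 kb wide with 68.2 tags/M in 4-OHT cells, against 6.64 kb and 49.2 tags/M in MM-401 cells and 6.56 kb and 44.6 tags/M in untreated cells. The log2 ratio of 4-OHT over untreated was 0.61 (0.53 to 0.70) for the H3K4me2 start level, past 1.5-fold and the only such H3K4me2 start level among the 7 members compared. It was within 1.5-fold over the window, at 0.42, and over the joined span of the start peaks of the 3 lists, at 0.26, and per kb of start peak it had the other sign, at -0.62. Over all genes 5.3% of H3K4me2 start levels were past 1.5-fold, 3.85% on the higher side. H3K4me1 beside the start had 65.7 tags/M in 4-OHT cells, 26.0 in MM-401 cells and 42.7 in untreated cells, so MM-401 lay below and 4-OHT above the untreated library. The log2 ratios were -0.72 (-0.86 to -0.58) for MM-401 and 0.62 (0.54 to 0.71) for 4-OHT. Over the whole window of Ezh2, 10 kb on either side, the H3K4me1 ratios were -0.27 and 0.24 and neither was past 1.5-fold. Per kb of start peak they were 0.14 and 0.16, so the MM-401 ratio had the other sign.

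Eed and Suz12 are the other core subunits. Eed (chr7:89954654-89980976, minus strand), which reads H3K27me3 and stimulates the enzyme, had 169 tags/M in MM-401 cells, 159 in 4-OHT cells and 142 in untreated cells, over 7.09, 10.0 and 7.27 kb. Suz12 (chr11:79993106-80034123, plus strand), the scaffold that joins core and accessory subunits, had 146 tags/M in MM-401 cells, 129 in 4-OHT cells and 125 in untreated cells, over 5.15, 5.83 and 5.48 kb. The 4-OHT over untreated log2 ratio was 0.16 at Eed and 0.04 at Suz12, and MM-401 over untreated was 0.25 at Eed and 0.23 at Suz12. All were within 1.5-fold.

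Downstream of these starts the H3K4me1 lists diverged. In 4-OHT cells 1 H3K4me1 peak of 28.0 kb covered Eed from 1.25 to 29.2 kb past its start, and the widest H3K4me1 peak there was 7.35 kb in MM-401 cells and 11.2 kb in untreated cells. At Suz12, 1 H3K4me1 peak of 30.3 kb in 4-OHT cells ran from 1.12 to 31.4 kb past the start. The H3K4me1 cover of the Suz12 window was 49.4 kb of 61.0 kb in 4-OHT cells, 14.2 kb in MM-401 cells and 21.8 kb in untreated cells. These are long stretches of listed H3K4me1 within genes whose H3K4me3 start levels were within 1.5-fold. The H3K4me1 libraries held 61.8 M filtered tags in 4-OHT, 22.2 M in MM-401 and 36.9 M in untreated cells. Their inputs held 55.0 M, 12.2 M and 36.6 M. H3K4me1 cover went in this order of depth at Ezh2, Eed, Suz12 and Aebp2, but not at Ezh1, Jarid2, Mtf2 and Phf19. The part of depth in cover was not tested.

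Summed over the window, Suz12 had 123 H3K4me1 tags/M in 4-OHT cells, 52.0 in MM-401 cells and 61.6 in untreated cells. The 4-OHT over untreated log2 ratio was 1.00 (0.93 to 1.06), but within 1 kb of the start it was -0.16 (-0.38 to 0.07) and per kb of peak it was -0.18. Eed had 90.2 tags/M in 4-OHT cells, 55.2 in MM-401 cells and 59.7 in untreated cells, a log2 ratio of 0.59 (0.52 to 0.67) for 4-OHT, just past 1.5-fold, and 0.52 when scaled to tags in peaks. The higher sums at both genes lay away from the start and came with wider peaks, while per kb of peak the log2 ratio was 0.09 at Eed and -0.18 at Suz12.

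Eed also shows how a neighbour enters a window sum. An H3K4me3 peak at the end of Hikeshi just reached the Eed window in 4-OHT and untreated cells, with 85.6 and 80.4 tags/M, and an H3K4me2 peak did so with 46.6 and 41.7 tags/M. In MM-401 cells no listed peak there touched the window. The MM-401 over untreated window ratio of Eed was -0.39 for H3K4me3 and -0.54 for H3K4me2, whereas at the start it was 0.25 and 0.12, and with each peak counted by its share inside the window it was 0.25 and 0.06. Peaks within 1 kb of other neighbours lay in the windows of Ezh1 (Cntnap1), Jarid2 (Dtnbp1) and Mtf2 (Tmed5), with at most 13.0 tags/M each.

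**Figure D2:**
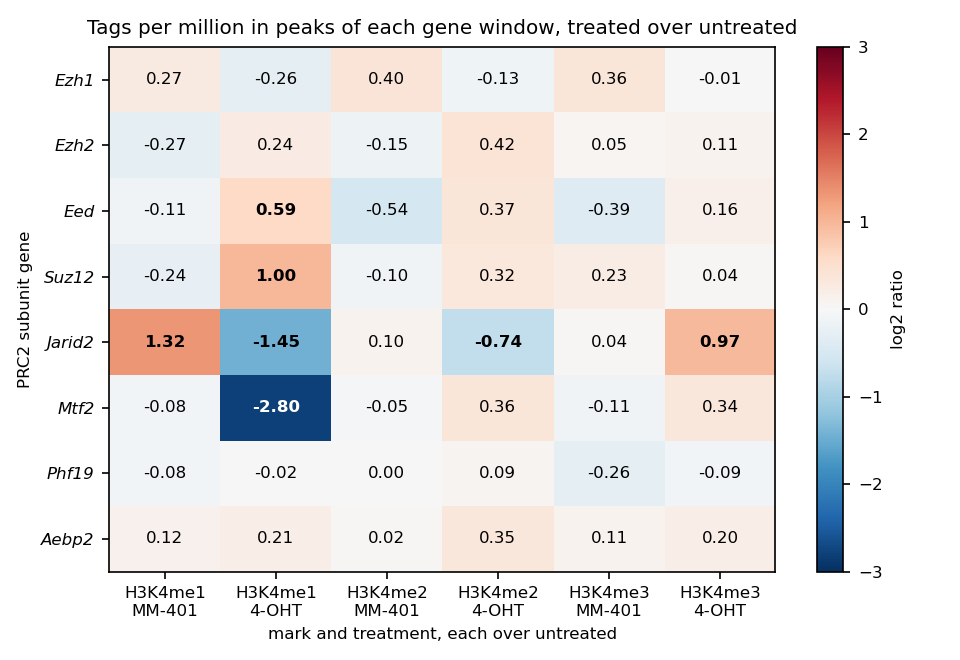
Log2 ratio of tags per M filtered tags, treated over untreated, summed over peaks inside or within 10 kb of each PRC2 subunit gene, for each mark and treatment (1 library a group; bold values are past 1.5-fold). Jarid2 is past 1.5-fold in 4 of 6 columns, Mtf2, Eed and Suz12 in that of H3K4me1 in 4-OHT cells, and the other 4 genes in none.

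Over whole windows, H3K4me3 was past 1.5-fold at 0 of 8 members in the MM-401 comparison, against 9.23% of all genes, and at 1 of 8 (Jarid2, higher) in the 4-OHT comparison, against 4.52% either way and 2.73% higher. H3K4me2 was past it at 0 of 8 for MM-401, against 5.91%, and at 1 of 8 (Jarid2, lower) for 4-OHT, against 5.07% either way and 1.42% lower. H3K4me1 was past it at 1 of 8 for MM-401 (Jarid2, higher), against 16.8% either way and 2.51% higher, and at 4 of 8 for 4-OHT, against 14.9%. In the 4-OHT comparison Eed and Suz12 were higher, as were 12.5% of all genes, and Jarid2 and Mtf2 were lower, as were 2.39%. The members' median log2 ratio of H3K4me1 was -0.08 for MM-401 and 0.10 for 4-OHT, against -0.12 and 0.15 over all genes. At the start alone, H3K4me1 was past 1.5-fold at 2 of 8 members for MM-401, against 18.6%: Jarid2 was higher, as were 6.83% of all genes, and Ezh2 lower, as were 11.8%. For 4-OHT it was so at 4 of 8, against 21.5%: Ezh2, Jarid2 and Aebp2 were higher, as were 18.5%, and Mtf2 lower, as were 3%. H3K4me2 at the start was past it at 0 of 8 members for MM-401, against 4.63%. Both comparisons use the same untreated library.

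Jarid2 (chr13:44730774-44921643, plus strand), a DNA-binding cofactor that helps to recruit PRC2 in embryonic stem cells, held the largest differences in H3K4me3. Its start peak had 273 tags/M in MM-401 cells (264 to 282), 426 in 4-OHT cells (418 to 433) and 229 in untreated cells (223 to 235). In 4-OHT cells the peak was 51.2 kb wide, from 2.47 kb before to 48.7 kb after the upstream start, and it was the widest of 56419 H3K4me3 peaks in that list. In MM-401 and untreated cells it was 10.5 and 11.3 kb wide. The 4-OHT library thus stood above both others in level and width, and the MM-401 and untreated levels were within 1.5-fold of each other.

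The difference is smaller once peaks are joined, since the untreated list has 5 separate peaks in the same 51.2 kb and the MM-401 list also has 5. Summed over that span, which was chosen after the data were seen, the levels were 290 tags/M in MM-401 cells, 426 in 4-OHT cells and 257 in untreated cells. The 4-OHT over untreated log2 ratio was then 0.73 (0.68 to 0.77), still past 1.5-fold, against 0.89 (0.85 to 0.94) for the start peak alone. MM-401 over untreated was 0.18 (0.12 to 0.23). The window held 10 H3K4me3 peaks in MM-401 cells, 18 in 4-OHT cells and 17 in untreated cells, and the cover of its 211 kb was 114 kb in 4-OHT cells, 27.7 kb in MM-401 cells and 40.9 kb in untreated cells. Per kb of peak the 4-OHT level of the window was below the untreated one, at a log2 ratio of -0.51, and in the start peak it was 8.31 tags/M per kb in 4-OHT cells, 26.0 in MM-401 cells and 20.2 in untreated cells.

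**Figure D3:**
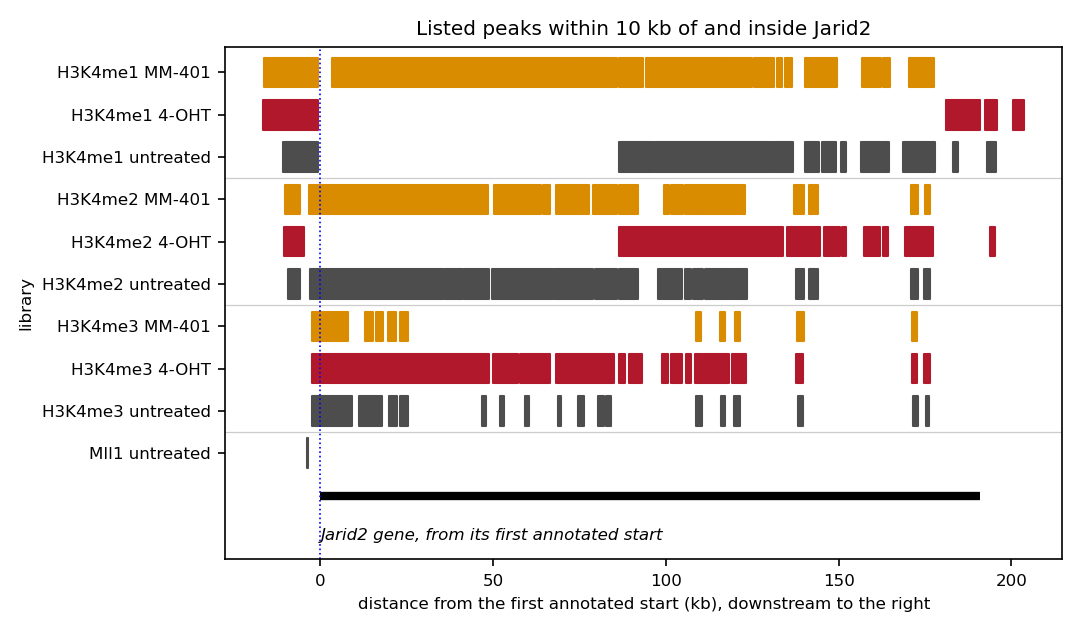
Listed peaks of H3K4me1, H3K4me2, H3K4me3 and Mll1 within 10 kb of and inside Jarid2, by distance in kb from its upstream annotated start (dotted line), with MM-401 and 4-OHT libraries above the untreated one for each mark. The 4-OHT H3K4me3 track fills the stretch up to 48.7 kb and most of that up to 86.6 kb, where the tracks of 4-OHT H3K4me1, 4-OHT H3K4me2 and untreated H3K4me1 hold no peak past the start.

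The lists of the other marks at Jarid2 did not follow H3K4me3. H3K4me2 had a start peak of 217 tags/M and 37.9 kb in MM-401 cells and of 192 tags/M and 39.0 kb in untreated cells, but the 4-OHT list held no H3K4me2 peak at all over a stretch of 91.4 kb that includes both starts. H3K4me1 was not listed over 182 kb in 4-OHT cells and over 87.2 kb in untreated cells. In MM-401 cells that same part of the gene held an H3K4me1 peak of 68.5 kb and 271 tags/M, the widest of 82150 in its list. The unlisted stretch of H3K4me2 in 4-OHT cells and that of H3K4me1 in untreated cells both ended 86.6 kb past the start.

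The window sums of Jarid2 carry these stretches. H3K4me1 summed to 571 tags/M in MM-401 cells, 83.7 in 4-OHT cells and 229 in untreated cells, with log2 ratios of 1.32 (1.28 to 1.36) for MM-401 and -1.45 (-1.5 to -1.4) for 4-OHT. Yet at the upstream flank of the start, where all 3 lists have a peak, H3K4me1 had 57.8 tags/M in MM-401 cells, 58.8 in 4-OHT cells and 33.5 in untreated cells, and over the joined span of these flank peaks 57.8, 58.8 and 48.4 tags/M. On that joined span the log2 ratios were 0.26 and 0.28, both within 1.5-fold, and the 4-OHT difference had the opposite sign to that of the window. H3K4me2 in the window was 432 tags/M in MM-401 cells, 243 in 4-OHT cells and 404 in untreated cells, a log2 ratio of -0.74 (-0.77 to -0.70) for 4-OHT. In 4-OHT cells 83.8 kb of the Jarid2 window had listed H3K4me3 with no listed H3K4me2. The same held for 0.175 kb in MM-401 cells and 0 kb in untreated cells.

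Mtf2 (chr5:108065660-108109219, plus strand), a Polycomb-like protein that binds unmethylated CpG-rich DNA, had a wide H3K4me3 domain in all conditions. In untreated cells 1 peak of 21.1 kb, the second widest of 52912 in the list, spanned both annotated starts, the CpG-rich upstream one and the CpG-poor one 12.5 kb downstream. In 4-OHT cells the peak was 23.1 kb wide, and in MM-401 cells it was listed as 2 peaks of 14.4 and 5.93 kb. The levels were 234 tags/M in MM-401 cells, 310 in 4-OHT cells and 249 in untreated cells. The log2 ratio was -0.09 (-0.15 to -0.03) for MM-401 and 0.32 (0.27 to 0.36) for 4-OHT, both within 1.5-fold.

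H3K4me2 at Mtf2 followed H3K4me3, but H3K4me1 did not. H3K4me2 over the starts had 169 tags/M in MM-401 cells, 205 in 4-OHT cells and 169 in untreated cells, in a peak of 21.8, 28.4 and 22.1 kb. H3K4me1 in the window had 135 tags/M in MM-401 cells, 20.5 in 4-OHT cells and 143 in untreated cells, a log2 ratio of -2.80 (-2.89 to -2.71) for 4-OHT and -0.08 (-0.14 to -0.01) for MM-401. The 4-OHT list had no H3K4me1 peak for 51.8 kb, from 0.04 to 51.9 kb past the upstream start, whereas the MM-401 list had a peak of 21.0 kb and the untreated list one of 22.0 kb past the start. Just before the start all lists held H3K4me1, as 2 peaks of 4.46 and 9.09 tags/M in MM-401 cells, as 2 peaks of 6.28 and 8.79 tags/M in 4-OHT cells, and as 1 peak of 15.6 tags/M in untreated cells.

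**Figure D4:**
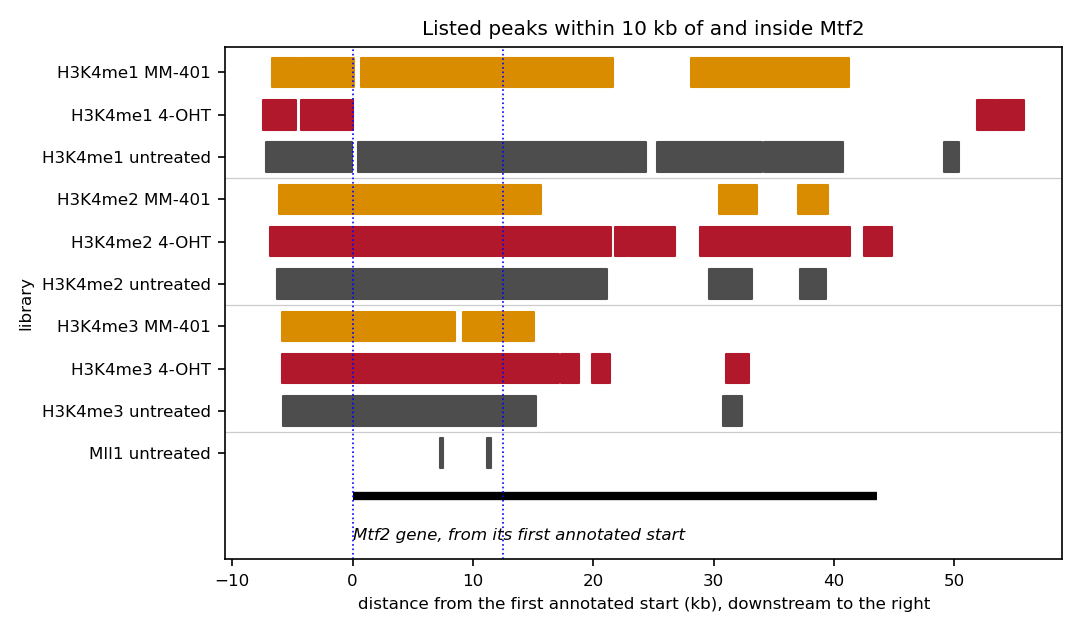
Listed peaks within 10 kb of and inside Mtf2, by distance in kb from its upstream annotated start (dotted lines mark both annotated starts), with MM-401 and 4-OHT libraries above the untreated one for each mark. H3K4me2 and H3K4me3 peaks cover both starts in every library (H3K4me3 in MM-401 cells as 2 peaks), and the 4-OHT H3K4me1 track is empty from 0.04 to 51.9 kb.

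Stretches with no listed H3K4me1 were not limited to Jarid2 and Mtf2. Of the untreated H3K4me1 peaks, 0.881% of those 2 to 5 kb wide had no overlapping peak in the 4-OHT list, but 11.5% of those of 20 to 30 kb and 25.4% (15.3% to 37.9%, n = 63 peaks) of those over 30 kb had none. Of the MM-401 peaks, 0.906%, 12.2% and 28.3% (16.8% to 42.3%, n = 53 peaks) were missing from the 4-OHT list in these width classes, and 0.406%, 4.97% and 11.3% (4.27% to 23.0%) from the untreated list. Among peaks over 2 kb wide, the share missing for these list pairs was thus highest in the widest class. Peaks of up to 2 kb are not in these classes. Over all widths 9.35% of untreated peaks were missing from the 4-OHT list and 3.36% of MM-401 peaks from the untreated list. Of untreated peaks, 8.39%, 0.481% and 7.94% (2.63% to 17.6%) were missing from the MM-401 list in the same classes. Some of the widest H3K4me1 peaks at members had low scores beside the lowest of 50 and the cap near 3100: 116 for the 68.5 kb peak of Jarid2 in MM-401 cells, 125 for the 30.3 kb peak of Suz12 in 4-OHT cells and 180 for a 34.3 kb peak of Jarid2 in untreated cells. Other wide ones scored higher, with 2750 for the 28.0 kb peak of Eed in 4-OHT cells and 535 for a 21.5 kb peak of Jarid2 in MM-401 cells. Of untreated H3K4me2 peaks, 0 of 46 of 20 to 30 kb and 1 of 17 over 30 kb had no overlapping peak in the 4-OHT list. That 1 was the 39.0 kb start peak of Jarid2. The lists hold no tag counts outside peaks, and the part that the calling of wide regions has in the H3K4me1 and H3K4me2 differences was not tested.

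**Figure D5:**
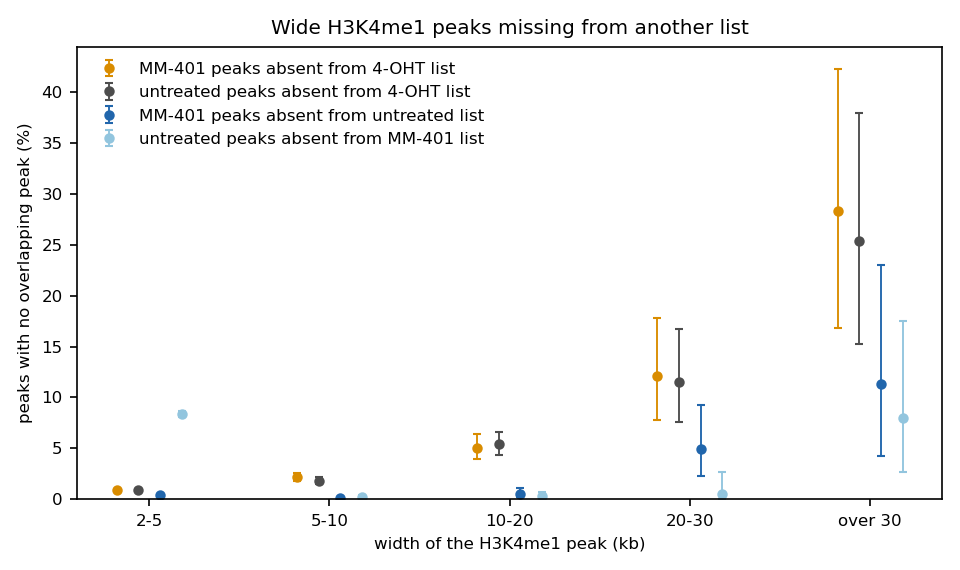
Share in percent of H3K4me1 peaks of one list that no H3K4me1 peak of another list overlaps, by width of the peak in kb, with exact 95% intervals for counting error. Peaks of up to 2 kb are left out. Above 10 kb the share missing from the 4-OHT list grows with width, to 28.3% of MM-401 peaks and 25.4% of untreated peaks over 30 kb.

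Aebp2 and Phf19 completed the accessory genes. Aebp2 (chr6:140622454-140678472, plus strand), a zinc-finger protein that stabilises the complex, had H3K4me3 at 203 tags/M in MM-401 cells, 194 in 4-OHT cells and 183 in untreated cells, in peaks of 10.2, 12.7 and 10.9 kb. Phf19 (chr2:34893752-34914353, minus strand), the Polycomb-like relative of Mtf2, had 32.0, 32.8 and 34.3 tags/M in these groups, in peaks of 2.65 to 2.88 kb. Per kb of peak Mtf2 and Phf19 were close, though the Mtf2 domain was far wider. They had 11.5 and 11.7 tags/M per kb in MM-401 cells, 13.5 and 12.4 in 4-OHT cells, and 11.8 and 11.9 in untreated cells. Phf1, also Polycomb-like, stood lower, at 7.42 in MM-401 cells, 8.96 in 4-OHT cells and 9.04 in untreated cells. At Aebp2 the H3K4me1 peak past the start was 35.1 kb in 4-OHT cells, 12.4 kb in MM-401 cells and 12.8 kb in untreated cells. Its H3K4me1 start level was 128 tags/M in 4-OHT cells, 93.9 in MM-401 cells and 80.8 in untreated cells, a log2 ratio of 0.66 (0.60 to 0.72) for 4-OHT. That ratio was within 1.5-fold over the window, at 0.21, and over the joined span of start peaks, at 0.11, and it was -0.25 per kb of start peak. The H3K4me1 cover of the Aebp2 window was 69.1 kb of 76.0 kb in 4-OHT cells, 54.3 kb in MM-401 cells and 59.2 kb in untreated cells. At Phf19 all 6 window ratios lay between -0.26 and 0.09.

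Set per kb of peak, which allows genes to be ordered, H3K4me3 at the starts ranged from 11.5 to 28.4 tags/M per kb in MM-401 cells, from 8.31 to 22.1 in 4-OHT cells and from 11.8 to 22.8 in untreated cells. Suz12 came first in all 3 groups. In MM-401 cells Jarid2 (26.0), Eed (23.9), Ezh2 (22.4), Aebp2 (19.97), Ezh1 (16.6), Phf19 (11.7) and Mtf2 (11.5) followed. In untreated cells the order was the same, at 20.2, 19.5, 18.2, 16.7, 13.2, 11.9 and 11.8 tags/M per kb. In 4-OHT cells Jarid2 came last, after Ezh2 (20.3), Eed (15.9), Aebp2 (15.3), Ezh1 (14.1), Mtf2 (13.5) and Phf19 (12.4). Each level is divided by the peak width of its own list. At Jarid2 that width was 51.2 kb in 4-OHT cells and 11.3 kb in untreated cells. Over the same 51.2 kb, the Jarid2 level was highest in 4-OHT cells, at 426 tags/M, against 290 in MM-401 cells and 257 in untreated cells. Whether neighbours in this order differ beyond the spread between libraries cannot be told with 1 library a group.

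Mll1 was listed at 5 of the 8 members, in 7 peaks of 9 to 23 tags, against 15.8% of all genes. The members are long, with a median of 42.3 kb against 17.2 kb over all genes, which widens their windows, and 1 of the 10 partner genes below had a peak. Ezh1 had a peak 8.0 kb before its start, where all 3 marks were listed in untreated cells, and Jarid2 had one 3.8 kb before its start with H3K4me1. Mtf2 had 2, at 7.2 and 11.2 kb past its upstream start, both under all 3 marks, and the peak at 11.2 kb, with 23 tags, lay 982 bp from the downstream start. Suz12 had one 30.02 kb into the gene with no listed mark, and Aebp2 had 2 at 33.0 kb, with H3K4me1, and 36.2 kb, with none listed. Ezh2, Eed and Phf19 had no listed Mll1 peak. The false discovery rates of the 7 ranged from 1.73% to 10.4%, the highest being that of the Mtf2 peak with 23 tags. That peak was the 1 of the 7 within 1 kb of a start, and none of the 7 had a score of 100. Inside the gene or within 1 kb of it, 3 members had a peak, against 10.5% of all genes, and inside the gene alone 3, against 8.81%.

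An untreated peak of a member was counted as lost where the treated list of that mark had nothing overlapping it, and a treated peak as gained in the opposite case. For H3K4me3 in 4-OHT cells 17 of 47 member peaks were gained, against 15.6% of the whole list, and 0 of 34 were lost, against 8.19%. The gained peaks were small, with a median of 56 tags and at most 3.14 kb, and lay at all members but Suz12. In MM-401 cells 0 of 23 H3K4me3 peaks were gained, against 0.864%, and 12 of 34 were lost, against 38.2%, all under 2 kb wide. For H3K4me2, 4-OHT cells gained 20 of 56, against 18.2%, and lost 7 of 56, against 6.44%. Of these, 6 gains and 6 losses were at Jarid2. MM-401 cells gained 0 of 44 H3K4me2 peaks, against 2.7%, and lost 13 of 56, against 33.8%. For H3K4me1, 4-OHT cells gained 5 of 43, against 16.7%, and lost 17 of 64, against 9.35%, with 10 of these at Jarid2 and 5 at Mtf2. MM-401 cells gained 3 of 54 H3K4me1 peaks, against 3.36%, and lost 17 of 64, against 34.4%. The MM-401 counts come from lists of unequal number. With lists of equal number, MM-401 cells lost 1 and gained 4 H3K4me3 peaks, lost 3 and gained 3 H3K4me2 peaks, and lost 6 and gained 8 H3K4me1 peaks. The excess of losses was not kept, but this cut drops the weakest untreated peaks by construction. It thus cannot show what the excess came from. Depth also moves with the counts, since the MM-401 libraries held 49.5% to 60.3% of the untreated tags and the 4-OHT libraries 105% to 167%, and its own part in them was not tested.

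Genes that work with or against PRC2 were taken from a list of 10: the histone-binding core subunits Rbbp4 and Rbbp7, the Polycomb-like Phf1, the PRC2-associated Epop, Ezhip, Lcor and Lcorl, and Kdm6a, Kdm6b and Uty of the H3K27 demethylase family. All 10 had an H3K4me3 start peak in every condition. Epop and Kdm6b have no annotated start, so the gene end with more H3K4me3 cover in these same lists was taken. That choice favours finding a peak there. In the MM-401 comparison 1 of 10 was past 1.5-fold for H3K4me3 over the window: Ezhip, lower, at a log2 ratio of -0.998. Of all genes 7.93% were past it on the lower side. For H3K4me1 0 of 10 were past it, against 16.8%, and for H3K4me2 0 of 10, against 5.91%. At its start Ezhip, whose protein inhibits PRC2, had 10.1 H3K4me3 tags/M in MM-401 cells, 22.5 in 4-OHT cells and 24.5 in untreated cells. In the 4-OHT comparison 4 of 10 were higher for H3K4me1, as were 12.5% of all genes. These were Ezhip, Lcorl, Kdm6a and Uty, with log2 ratios of 0.62 to 0.90. For H3K4me2 1 of 10 was higher (Kdm6a, 0.90), as were 3.64%, and for H3K4me3 0 of 10 were past 1.5-fold, against 4.52%. Per kb of peak the 4 H3K4me1 ratios were 0.24, -0.06, 0.13 and -0.19, and the H3K4me2 ratio of Kdm6a was 0.04. The H3K4me1 intervals of Ezhip (0.49 to 1.32), Lcorl (0.48 to 0.91) and Uty (0.48 to 0.76) reached below 1.5-fold. Within 1 kb of the start, 1 of the 9 partners compared was past 1.5-fold for H3K4me1 (Ezhip), against 21.5% of all genes. Ezhip was higher, as were 18.5%, and its ratio rested on 66 untreated tags in 2 peaks. H3K4me2 was past 1.5-fold there at 0 of 10, against 5.3%. At Rbbp4 H3K4me3 stood at 21.8 tags/M per kb in MM-401 cells, 14.8 in 4-OHT cells and 18.0 in untreated cells, near the values of Eed.

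For each member the gene with the most similar window levels over the 9 mark libraries was found by Euclidean distance of log2(tags/M + 1), leaving out genes that share a peak with it. These were Wscd1 for Ezh1, Eif4e for Ezh2, Nasp for Eed, Glg1 for Suz12, Tet1 for Jarid2, Klf3 for Mtf2, Tchp for Phf19 and Mark2 for Aebp2. The distances were 0.25 for Phf19, 0.30 for Aebp2, 0.31 for Ezh2, 0.47 for Ezh1, 0.51 for Suz12 and 0.65 for both Eed and Mtf2. For Jarid2 the distance was 1.89, so no gene of the set had a pattern near to it.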

How the data were processed

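Chromatin immunoprecipitation libraries of 3 histone marks in MM-401, 4-OHT and untreated cells, and of Mll1 in untreated cells, were analysed from 10 deposited peak lists; 4 input libraries enter only as controls of the peak calls. Per the file headers the authors called peaks with MACS 1.4.2 in each library alone (p cutoff 1e-05, band width 300 bp, effective genome size 2.7e+09), whereas the submitters' processing notes name MACS2, Bowtie2, SAMtools 1.5 and build mm10. The deposited counts are tags in a peak without duplicates and with no scaling. The score in the deposited lists is -10 times the log10 of the peak's p-value, with a lowest value of 50. The deposited fold enrichment ratio was not used, and the percent column, also deposited, is a false discovery rate by exchange of library and input. The deposited width is end minus start plus 1.

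Genes and starts are those of RefSeq GRCm38.p6; 17492 of 21887 genes had an annotated start, and for the other 4395 the end with more H3K4me3 cover was taken. Tags of all peaks touching the window (10 kb) or start (1 kb) were summed per 1000000 filtered tags. Intervals are exact Poisson for levels, conditional binomial for ratios and Clopper-Pearson for shares. A gene was compared where both lists had a peak. With 1 library a group no p-values were computed. The scripts (Python 3.11.15, pandas 2.3.3, scipy 1.17.1) were checked on simulated peaks. The 8 members, the 10 partner genes, the nearest gene by pattern and neighbours within 1 kb of a peak were named by rule. Members and lists were chosen with earlier results of these data known. The alternatives tried were other scalings, scores, windows, widths and lists of equal number.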

Additional observations from a re-analysis of the deposited data

How the results depend on the processing

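No paired analysis was possible because each group has 1 library. Across the 48 member ratios and 10 alternatives, 7 of the values for called ratios had the other sign: Suz12 H3K4me1 in 4-OHT cells within 1 kb of the start (-0.16), over the joined span of start peaks (-0.16) and per kb (-0.18), Jarid2 H3K4me1 in 4-OHT cells in the same 3 settings (0.81, 0.28 and 0.044), and Jarid2 H3K4me3 in 4-OHT cells per kb (-0.51). Counts of members past 1.5-fold were as follows. For H3K4me1 in MM-401 cells the count of 1 became 2 with lists of equal number and at the start, and 0 per kb and over the joined span. For H3K4me2 in MM-401 cells the count of 0 became 1 when centred on the median of all genes, 2 by width and 1 per kb, and for H3K4me3 in MM-401 cells 0 became 1 by width and 1 per kb. For 4-OHT, H3K4me1 had 4, but 1 per kb and 1 over the joined span, H3K4me2 had 1, but 3 by width and 0 over the joined span, and H3K4me3 had 1, but 3 by width. Members with an Mll1 peak were 5, but 3 within 1 kb, 3 in the gene body and 0 with a score of at least 100. With lists of equal number, MM-401 losses were 6 for H3K4me1, 3 for H3K4me2 and 1 for H3K4me3, and MM-401 gains were 8, 3 and 4. With 50% overlap, 4-OHT gained 8 H3K4me1 peaks in place of 5. For every other count, all remaining alternatives stayed within 1.5 times, among them the 7 of 8 members with start peaks in all 9 mark lists. A kept count could still rest on another gene. Per kb, the 1 for H3K4me3 in 4-OHT cells was Ezh2 (lower, -0.80) in place of Jarid2. The 1 for H3K4me2 in 4-OHT cells was Suz12 (lower, -0.585) per kb and Ezh2 (higher, 0.61) at the start. The cause of these changes was not tested, but lists of equal number drop the weakest peaks of the longer list by construction. The joined span was added after the data were seen. The MM-401 libraries were the shallowest for each mark, at 12.9 M to 22.2 M tags.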
